A study of Homo sapiens with 12 samples.

Results

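The 10 genes described here are the FOS family (FOS, FOSB, FOSL1 and FOSL2), the JUN family (JUN, JUNB and JUND) and 3 further stress-responsive genes, EGR1, ATF3 and IER3. They were followed in HCT116, an established human colorectal cancer cell line, during reduced oxygen. Cells at 0 h were kept at 21% oxygen, and cells at 1, 2 and 24 h had spent that time in 1% oxygen. Each of the 4 time points had 3 biological replicates, which gave 12 poly(A) RNA libraries sequenced paired-end with strand information. HCT116 is a single line, and the labels name no transgene or drug. Hypoxia began 24 h after the cells had been plated. The sources used here do not state when the cells of 0 h were collected relative to plating, and if that was at the start of hypoxia, time in culture and time in hypoxia cannot be told apart.

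For each gene name, the abundance of all transcripts that matched a reference transcript or shared at least 1 splice junction with it was summed. The unit is FPKM, fragments per kilobase of transcript divided by the mapped fragments of the library, in units of 1000000. The 10 genes were chosen by name out of 56537 gene names, of which 16680 passed a filter on low values (summed FPKM above 0.5 in at least 3 libraries). All 10 passed it, each with a summed FPKM above 0.5 in all 12 libraries. In bulk RNA, fewer cells carrying a transcript and less transcript per cell cannot be told apart.

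FOS and JUN proteins are basic leucine zipper (bZIP) transcription factors that pair to form AP-1, which binds short DNA elements near genes of proliferation, invasion and stress responses. JUN proteins can pair with each other, whereas FOS proteins need a partner, usually a JUN protein. Many of these genes are immediate early genes: kinase signalling acts on factors already bound at their promoters, so that their RNA appears within minutes without new protein synthesis and is then quickly degraded. FOSL1 and FOSL2 lack the strong transactivation domain of FOS and FOSB and typically accumulate later and persist for longer. EGR1 is a zinc finger factor induced by the same signals. ATF3 is a stress-induced bZIP protein of the ATF/CREB family. IER3 is a small protein that affects cell survival.

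The promoters of EGR1, FOS, JUND and FOSL2 are shown because EGR1 and FOS had the highest ratios to 0 h at 1 h over all 3 libraries and JUND and FOSL2 were called at 24 h. The sequences are from RefSeq (GRCh38.p14) and run 5′ to 3′ on the strand of the gene over the 250 bases before its annotated start. They cover chr5:138465229-138465478 (plus strand), chr14:75278578-75278827 (plus strand), chr19:18281623-18281872 (minus strand) and chr2:28392608-28392857 (plus strand). Capitals mark the CArG box, which serum response factor binds, and TGACGT, the core of the cyclic AMP response element, on either strand.
EGR1: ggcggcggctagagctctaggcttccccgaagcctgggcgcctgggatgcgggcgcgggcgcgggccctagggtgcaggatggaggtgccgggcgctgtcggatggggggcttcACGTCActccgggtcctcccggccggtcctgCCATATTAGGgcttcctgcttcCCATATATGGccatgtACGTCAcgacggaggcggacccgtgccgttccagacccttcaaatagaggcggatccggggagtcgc
FOS: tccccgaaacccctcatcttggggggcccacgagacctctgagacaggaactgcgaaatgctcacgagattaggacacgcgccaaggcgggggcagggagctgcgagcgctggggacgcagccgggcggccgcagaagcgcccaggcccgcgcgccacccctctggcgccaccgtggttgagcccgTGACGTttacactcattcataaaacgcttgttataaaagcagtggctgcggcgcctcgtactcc
JUND: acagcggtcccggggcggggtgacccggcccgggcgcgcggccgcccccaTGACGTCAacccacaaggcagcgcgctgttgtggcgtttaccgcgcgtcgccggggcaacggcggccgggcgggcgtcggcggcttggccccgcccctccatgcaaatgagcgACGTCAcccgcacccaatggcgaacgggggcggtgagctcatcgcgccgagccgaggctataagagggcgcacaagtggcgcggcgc
FOSL2: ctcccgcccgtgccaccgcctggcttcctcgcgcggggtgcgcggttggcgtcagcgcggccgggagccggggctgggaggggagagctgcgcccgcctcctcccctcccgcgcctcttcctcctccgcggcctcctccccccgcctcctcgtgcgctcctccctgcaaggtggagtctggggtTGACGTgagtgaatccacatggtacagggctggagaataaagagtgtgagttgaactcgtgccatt

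EGR1 carried 2 CArG boxes, CCATATTAGG from -105 to -96 and CCATATATGG from -83 to -74, counted back from the last base before the start. Of the 8 genes with an entry among the RefSeq promoters (9 entries, since ATF3 had 2), EGR1 was the only one with this motif, which 1.16% of 35116 promoters held in the same window. TGACGT was found in 5 of the 8 genes, EGR1, FOS, FOSB, FOSL2 and JUND, against 7.1% of all promoters. The longer TGACGTCA, which contains TGACGT on both strands, was found in JUND alone among them and in 1.65% of promoters. None of the 8 held TGANTCA, the element that FOS and JUN pairs bind, which 6.57% of promoters held. The cores of the hypoxia response element were ACGTG, present in EGR1 and FOSL2 (18.5% of promoters), and GCGTG, present in FOS, JUN and JUNB (32.2%). ACGTG and TGACGT overlap where they occur as TGACGTG. All motifs were searched on both strands, and a match describes the letters in this window only. FOSL1 and IER3 had no entry.

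On hg19, the build of the deposited files, EGR1 spans chr5:137801168-137804992, FOS chr14:75745529-75748933, JUND chr19:18390504-18392432 and FOSL2 chr2:28615315-28640184. JUNB spans chr19:12902300-12904129 and IER3 chr6:30710976-30712325. GENCODE lists all 10 as protein-coding genes.

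In 2 libraries these genes stood apart. Replicate 3 of 1 h and replicate 3 of 2 h were above the mean of replicates 1 and 2 of the same time by more than the 95th percentile of all genes tested for 5 of the 10 genes at 1 h and 7 of the 10 at 2 h. At 0 h and at 24 h, 0 of the 10 genes lay above that percentile. The difference of replicate 3 at 1 h was 2.45 on the log2 scale for FOS, 2.06 for EGR1 and 1.29 for JUNB, against a 95th percentile of 0.65. At 2 h it was 2.19 for EGR1, 1.58 for JUNB and 1.21 for IER3, against 0.61. The other immediate early genes listed below moved in the same libraries, with 6 of 18 above the 95th percentile at 1 h and 9 of 18 at 2 h, against 0 of 18 at 0 h and 2 of 18 at 24 h. Of 10 genes with a known response to hypoxia, 1 lay above it before hypoxia, a different 1 after 1 h, 3 after 2 h and 0 after 24 h. The ratios of EGR1, FOS and FOSB at 1 h and the calls that use 1 h or 2 h are therefore also given without these libraries. The mean levels, family shares and medians at 1 h and 2 h include them. The cause was not tested.

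**Figure D1:**
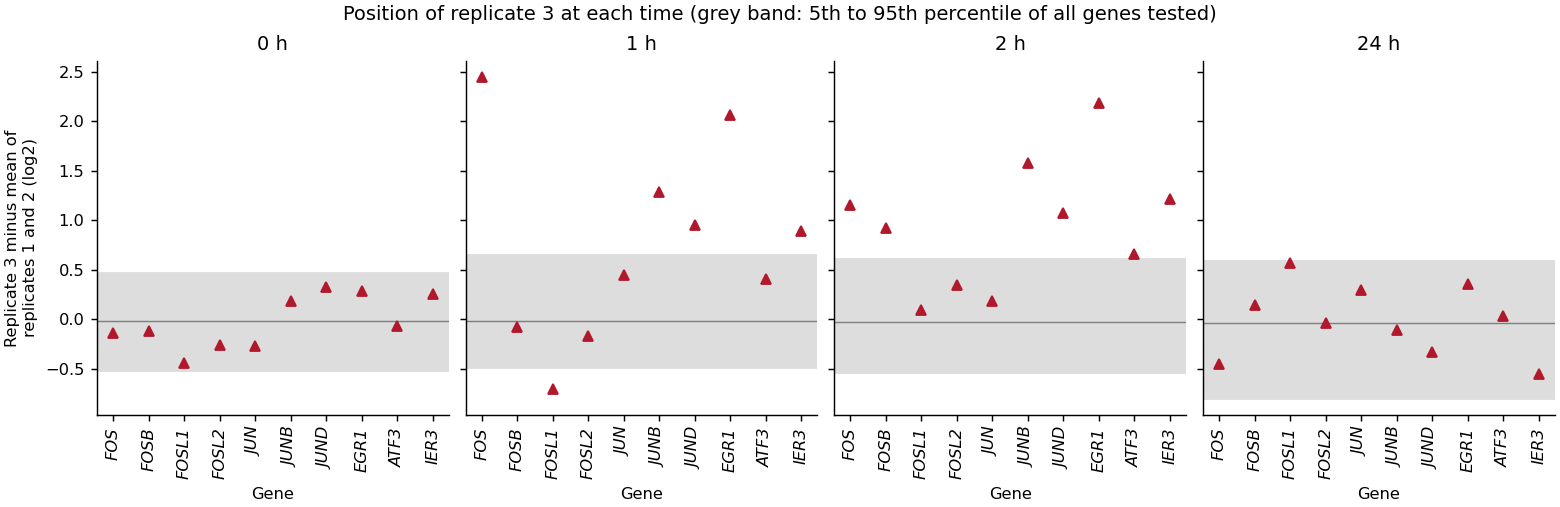
Each triangle is the log2(FPKM + 0.5) of replicate 3 minus the mean of replicates 1 and 2 for one gene (x axis), in 4 panels for 0, 1, 2 and 24 h. The grey band spans the 5th to 95th percentile of the 16680 genes tested, and 5 genes at 1 h and 7 at 2 h lie above it.

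Over the genes tested, size factors by the median of ratios ran from 0.967 to 1.02, and Pearson's r between replicates, on the log2 scale, from 0.965 to 0.988. The FPKM of all transcripts summed to between 1534760 and 5258189 per library. Transcripts shorter than 300 bases took 57.0% to 70.4% of that sum at 0 h, 69.0% to 84.1% at 1 h, 74.5% to 85.9% at 2 h and 64.9% to 87.6% at 24 h. The share was 84.1% in replicate 3 of 1 h and 85.9% in replicate 3 of 2 h, and it was also 85.2% in replicate 1 of 2 h and 87.6% in replicate 3 of 24 h. Of the 10 hypoxia genes, all were called higher at 24 h than at 0 h, NDRG1, BNIP3 and VEGFA among them. CA9 passed the filter only through its 24 h libraries, so its call adds nothing to the other 9. Of 7 colorectal epithelial markers, 5 passed the filter, with KRT8 at 988 ± 190 FPKM (SD, n = 3) and EPCAM at 279.7 ± 39.1 at 0 h, while CDX1 and VIL1 did not pass it. Between 0 h and 24 h the 5 had a median log2 fold change of -0.16, with EPCAM (-0.28 ± 0.16), KRT18 (-0.20 ± 0.17) and KRT8 (-0.16 ± 0.14) not called and EPCAM lower in all 3 libraries of 24 h. The adhesion gene CDH1 was called higher at 24 h (1.76 ± 0.13), though not under TPM over all transcripts (0.88, limma adjusted p = 0.058), and KRT19 between 2 h and 24 h (1.04 ± 0.11), although not without replicate 1 or 2 of 2 h or replicate 3 of 24 h (0.98 to 1.00) or under either TPM scaling.

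At 1 h EGR1, FOS and FOSB had the highest levels relative to 0 h. The mean FPKM of EGR1 was 15.3 times that of 0 h at 1 h, that of FOS 11.3 times and that of FOSB 4.31 times, with replicate 3 far above the others for EGR1 and FOS. Over replicates 1 and 2 of 1 h alone, the ratios were 7.46 for EGR1, 4.45 for FOS and 4.61 for FOSB. By this ratio of means, FOS was above FOSB only with replicate 3. The FOSB ratio leans on replicate 1 (6.16 FPKM against 1.75 in replicate 2). In the limma fit without replicate 3 of 1 h and 2 h, the log2 fold change of FOS stayed larger. It was 1.92 ± 0.19 (SE) against 1.53 ± 0.45 for FOSB, on a scale that understates the change of genes with low values. EGR1 stood at 9.43, 10.4 and 12.2 FPKM in replicates 1 to 3 of 0 h. It stood at 86.4, 72.7 and 332 FPKM at 1 h and at 52.8, 38.0 and 206 FPKM at 2 h, and at 24 h at 20.8, 30.4 and 32.4 FPKM. Every library of hypoxia was above every library of 0 h, and at 24 h every library was below every library of 2 h. In limma over all 12 libraries, the log2 fold change of EGR1 relative to 0 h was 3.53 ± 0.60 (SE) at 1 h (Benjamini-Hochberg adjusted p = 0.39), 2.76 ± 0.60 at 2 h (0.082) and 1.33 ± 0.60 at 24 h (0.078), so that no time passed the test. This fit gives each gene 1 spread for all 4 times, so the SE at 24 h also holds the spread of 1 h and 2 h. With the 6 libraries of 0 h and 24 h alone, EGR1 and FOS were called at 24 h. Genes were called when the log2 fold change went beyond 1 in either direction with an adjusted p below 0.01.

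FOS stood at 2.34, 2.16 and 1.99 FPKM at 0 h. After 1 h the values were 10.6, 8.65 and 54.4 FPKM, after 2 h 7.87, 5.99 and 16.0 FPKM, and after 24 h 9.33, 7.57 and 6.02 FPKM. None of the libraries in hypoxia overlapped those of 0 h, whereas 2 h and 24 h overlapped. The log2 fold change was 2.74 ± 0.54 at 1 h (limma adjusted p = 0.65), 1.86 ± 0.54 at 2 h (0.16) and 1.59 ± 0.54 at 24 h (0.025), none of them called. FOSB, the closest relative of FOS, had the lowest mean of the 10 genes at every time. It had 1.16, 0.643 and 0.772 FPKM at 0 h, 6.16, 1.75 and 3.18 FPKM at 1 h, 6.35, 2.39 and 7.96 FPKM at 2 h and 1.94, 1.76 and 2.097 FPKM at 24 h. Its largest log2 fold change was 2.04 ± 0.41 at 2 h (adjusted p = 0.066), and all of its libraries at 24 h lay below those of 2 h (-1.18 ± 0.41, adjusted p = 0.028).

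**Figure D2:**
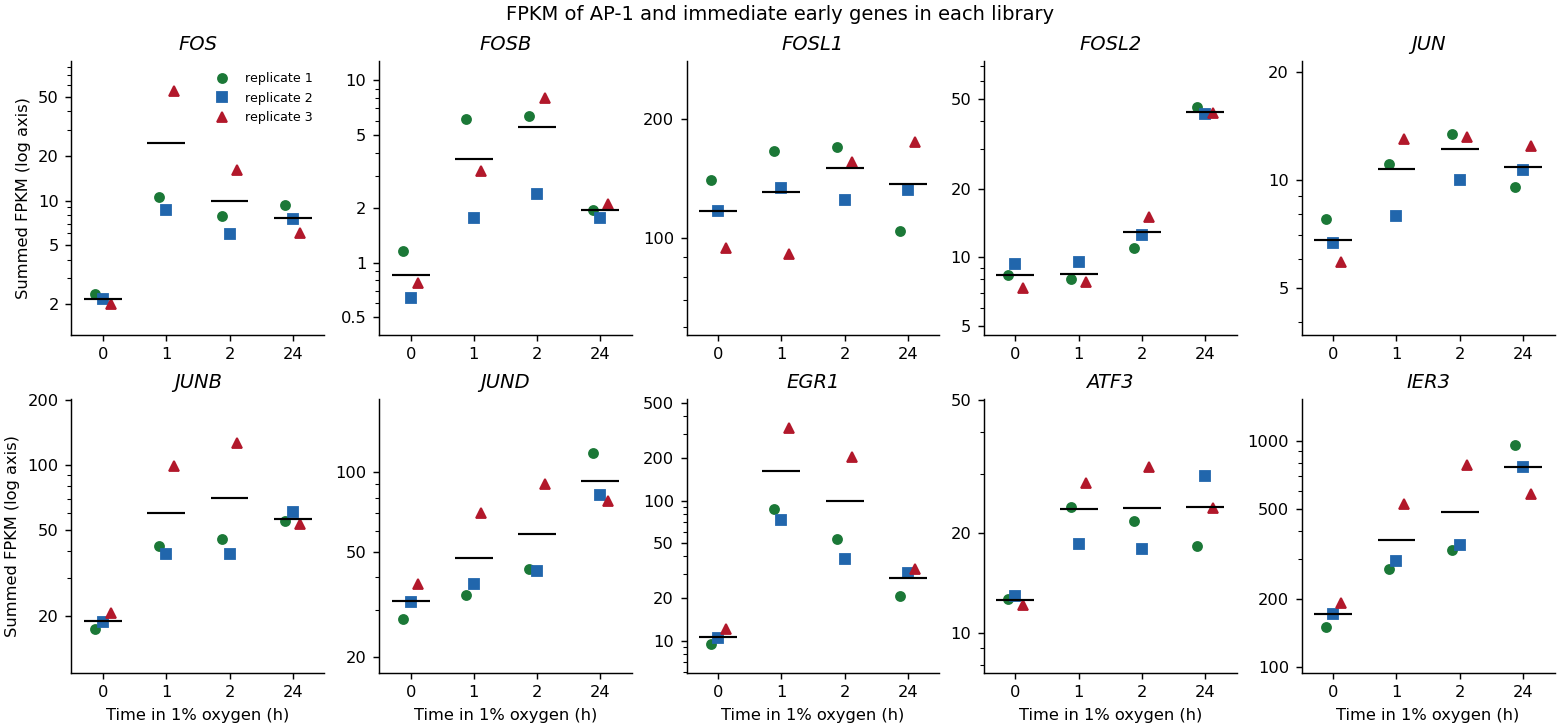
Summed FPKM (y axes, log scale, a separate range for each gene) of the 10 genes at 0, 1, 2 and 24 h in 1% oxygen. Symbols are the 3 replicates and bars their mean; replicate 3 of 1 h and 2 h lies highest for FOS, EGR1, JUNB, JUND, ATF3 and IER3, while FOSL2 rises above 40 FPKM in all 3 libraries of 24 h.

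With replicate 3 of 1 h and of 2 h left out, EGR1 and FOS were called at 1 h. Their log2 fold changes were then 2.84 ± 0.21 (limma adjusted p = 0.00056) and 1.92 ± 0.19 (adjusted p = 0.0089). In the same fit EGR1 (2.03 ± 0.21, adjusted p = 0.0056) and JUNB (1.13 ± 0.11, adjusted p = 0.0056) were called at 2 h. JUNB at 1 h had 1.08 ± 0.11 with an adjusted p of 0.0102. The fold changes of EGR1 and FOS were smaller without these libraries, and their standard errors were smaller too. In that fit 0.018% of all genes tested were called higher at 1 h (3 genes, the other being RNVU1-16) and 0.048% at 2 h (8 genes). The 8 were EGR1, JUNB, the stress and hypoxia genes DDIT4, ANKRD37 and BHLHE40, and CSRNP1, MAFF and PIM1. This fit was added after the data had been seen, and the 2 libraries were left out because these same genes stood apart in them. Its calls therefore follow from a choice made on the same values, and they are given as a description and not as support.

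With all 12 libraries and FPKM as deposited, 0 of the 10 genes were called at 1 h or at 2 h. Rescaled to TPM over all transcripts, EGR1 (2.85, limma adjusted p = 3.9e-07) and FOS (1.96, adjusted p = 0.00024) were called at 1 h and EGR1 (1.64, adjusted p = 0.0086) at 2 h, while the median of all genes was -0.56 and -0.94. In that TPM fit 0.0619% of all genes were called higher at 1 h (9 genes, with 19 lower) and 0.0963% at 2 h (14 genes, with 526 lower). In the fit to FPKM as deposited, 0.006% were called higher at 1 h (1 gene, RNVU1-16, an snRNA variant listed at 0 in every library of the other times, so that it passed the filter only through 1 h) and 0.018% at 2 h (3 genes, MAFF, PIM1 and ERRFI1). At an unadjusted p under 0.05, limma had 769 genes at 1 h and 2547 at 2 h. The replicates of 7 of the 10 genes were all above those of 0 h at 1 h, namely FOS, FOSB, JUN, JUNB, EGR1, ATF3 and IER3, whereas 6.36% of all genes were so placed. At 2 h this held for 9 of the 10, all but FOSL1, against 12.2% of all genes. The median log2 fold change of the 10 genes was 0.94 at 1 h and 1.12 at 2 h, and that of all genes was -0.01 and -0.02.

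At 24 h, FOSL2, IER3, JUNB and JUND were called higher than at 0 h. These 4 of 10 compare with 8.76% of all genes called higher at that time. None of the 10 was called lower, as were 9.51% of all genes. All 3 replicates were above all 3 of 0 h in 9 of the 10, again all but FOSL1, against 27.6% of all genes. The median log2 fold change was 1.40, and that of all genes was -0.05. Rescaled to TPM over all transcripts, short ones included, the median of all genes was -0.78 and FOSL2 alone of the 4 was called (1.44% of all genes were called higher), although the 4 lay 1.39 to 2.22 above that median.

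FOSL2, which encodes a FOS-related protein of late accumulation, changed at 24 h with little spread. It had 8.34, 9.34 and 7.30 FPKM at 0 h, 8.06, 9.56 and 7.76 FPKM at 1 h and 11.0, 12.6 and 15.1 FPKM at 2 h. At 24 h the values were 45.8, 42.7 and 43.3 FPKM. The libraries of 0 h and 1 h overlapped, those of 2 h lay above both and those of 24 h stood far above all others. FOSL2 rose by 2.34 ± 0.13 on the log2 scale between 0 h and 24 h (limma adjusted p = 1.8e-07), a ratio of means of 5.28. It also rose by 1.74 ± 0.13 between 2 h and 24 h (adjusted p = 1.5e-06), the only one of the 10 called in that comparison, in which 7.44% of all genes were called higher. It was called at 24 h in all 12 fits that left out 1 library.

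IER3 was the most abundant of the 10 genes at every time. It had 150 FPKM in the lowest and 191 in the highest library of 0 h. At 1 h it had 271, 294 and 523 FPKM, at 2 h 327, 347 and 782 FPKM and at 24 h 956, 761 and 583 FPKM. The 1 h and 2 h libraries lay above those of 0 h, and those of 24 h overlapped those of 2 h because of replicate 3. IER3 rose by 2.14 ± 0.32 by 24 h (limma adjusted p = 0.00015), and this call held in all 12 fits without 1 library. In the fit without replicate 3 of 1 h and 2 h, IER3 was also called between 2 h and 24 h (1.16 ± 0.18, limma adjusted p = 0.00055), as was JUND (1.09 ± 0.18, adjusted p = 0.00071), with 8.14% of all genes called higher. Leaving out the highest library of 2 h raises both differences by construction, so these calls too are a description.

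JUND, the JUN-family gene that resting cells express most steadily, had 27.8, 32.2 and 37.6 FPKM at 0 h. It had 34.2, 37.6 and 70.2 FPKM at 1 h, 42.9, 42.3 and 90.2 FPKM at 2 h and 118, 81.8 and 78.1 FPKM at 24 h. Replicates 1 and 2 of 1 h lay within the range of 0 h, and all of 2 h and 24 h lay above it. JUND rose by 1.48 ± 0.31 by 24 h (limma adjusted p = 0.0016), called in all 12 fits without 1 library. JUNB, which often opposes JUN in growth control, had 17.5, 18.8 and 20.7 FPKM at 0 h and 42.3, 38.8 and 99.5 FPKM at 1 h. It had 45.4, 38.9 and 127 FPKM at 2 h and 55.1, 60.6 and 53.7 FPKM at 24 h. Every library in hypoxia was at least 2.04 times the mean of 0 h, and replicate 3 was the highest at 1 h and 2 h but the lowest at 24 h. JUNB rose by 1.55 ± 0.40 by 24 h (limma adjusted p = 0.0059). This call was lost in 6 of the 12 fits without 1 library, those that left out any library of 0 h or of 24 h (adjusted p = 0.013 to 0.0211), and it was also lost without the filter on low values (0.022).

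JUN, the founding member of its family, had the smallest log2 fold change of the 3 at 24 h. Its FPKM was 7.78, 6.64 and 5.91 before hypoxia, 11.1, 7.94 and 13.0 after 1 h, 13.4, 9.97 and 13.2 after 2 h and 9.52, 10.7 and 12.5 after 24 h. All hypoxic libraries were above those of 0 h, and the 3 hypoxic times overlapped. The log2 fold change of JUN was 0.80 ± 0.18 at 2 h (limma adjusted p = 0.099) and 0.64 ± 0.18 at 24 h (0.0103), under the threshold on fold change. ATF3 had 12.7, 12.9 and 12.2 FPKM before hypoxia, 23.9, 18.5 and 28.2 after 1 h, 21.7, 17.9 and 31.4 after 2 h and 18.2, 29.5 and 23.7 after 24 h. The hypoxic libraries of ATF3 did not overlap those of 0 h and overlapped each other. Its log2 fold changes at 1, 2 and 24 h were 0.86, 0.85 and 0.87, each ± 0.22, and the adjusted p was 0.0046 at 24 h, with the fold change under the threshold.

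FOSL1 was the gene of the 10 whose replicates overlapped those of 0 h at every time. It had 140, 117 and 94.7 FPKM before hypoxia, 166, 134 and 91.6 after 1 h, 170, 125 and 156 after 2 h and 105, 132 and 175 after 24 h. The log2 fold changes were 0.13 ± 0.23 at 1 h, 0.36 ± 0.23 at 2 h and 0.21 ± 0.23 at 24 h, and the smallest limma adjusted p was 0.47. Its level at 0 h was already second to IER3 among these genes.

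**Figure D3:**
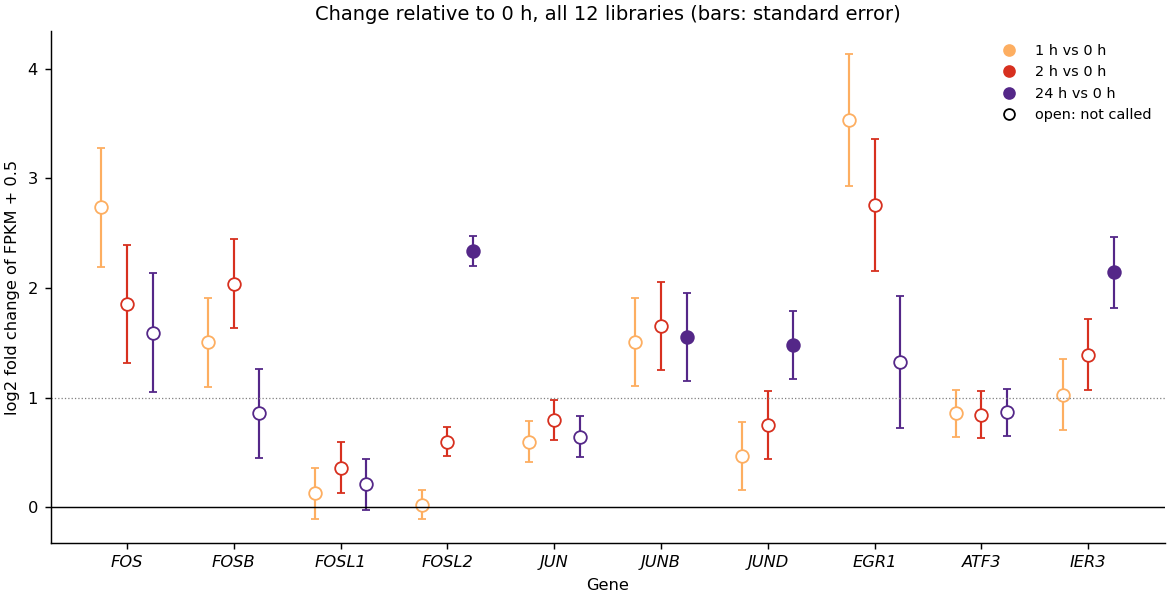
The log2 fold change (y axis, on log2(FPKM + 0.5), all 12 libraries) of each gene at 1, 2 and 24 h relative to 0 h, with standard errors as bars. Filled points, FOSL2, JUNB, JUND and IER3 at 24 h, were called, and open points were not; the dotted line marks a log2 fold change of 1.

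Between 2 h and 24 h, FOSL2 alone of the 10 was called. It alone had all 3 replicates of 24 h above those of 2 h (25.3% of all genes), and FOSB and EGR1 had all 3 below (28.9% of all genes), counts no higher than these shares. The log2 fold change of EGR1 was -1.43 ± 0.60 (limma adjusted p = 0.064), and that of FOS was -0.26 ± 0.54 (0.71). With all 12 libraries none of the 10 was called lower in this comparison (7.28% of all genes were). FOSB was called lower with the replicate number as a block (-1.18 ± 0.30, limma adjusted p = 0.0069, 7.36% of all genes called lower) and without replicate 2 of 2 h (-1.65, adjusted p = 0.0033). The median over the 10 was -0.13, and over all genes -0.03.

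FPKM is scaled by length, so levels may be ordered across genes. At 0 h the order by mean FPKM was IER3 (171), FOSL1 (117), JUND (32.6), JUNB (19.0), ATF3 (12.6), EGR1 (10.7), FOSL2 (8.33), JUN (6.78), FOS (2.17) and FOSB (0.857). Only FOSL2 and JUN overlapped as neighbours. At 1 h EGR1 (164 FPKM) was second to IER3 (363 FPKM), but every neighbouring pair down to FOS and ATF3 overlapped. This place of EGR1 rests on replicate 3 (332 FPKM against 91.6 for FOSL1). In replicates 1 and 2 EGR1 (86.4 and 72.7 FPKM) was below FOSL1 (166 and 134 FPKM). At 2 h FOSL1 (150 FPKM) was again second and overlapped EGR1 (98.9 FPKM). At 24 h the order was IER3 (767), FOSL1 (137), JUND (92.8), JUNB (56.5), FOSL2 (43.9), EGR1 (27.8), ATF3 (23.8), JUN (10.9), FOS (7.64) and FOSB (1.93), and only FOSL1 with JUND and EGR1 with ATF3 overlapped as neighbours. FOSL2 thus passed ATF3 and EGR1 in the order between 0 h and 24 h.

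The make-up of the pool of AP-1 transcripts differed between the times. It is given as a description, since 3 against 3 libraries allow no permutation p below 0.1. At 0 h FOSL1 supplied 91.1% ± 0.99 (SD, n = 3) of the summed FPKM of the FOS family, FOSL2 6.56% ± 0.93 and FOS 1.70% ± 0.18. At 1 h FOS supplied 5.56% in the lowest and 34.7% in the highest library. At 24 h FOSL1 supplied 71.2% ± 6.3 and FOSL2 23.5% ± 4.6, and the shares of both did not overlap those of 0 h (exact permutation test, two-sided, p = 0.1, the smallest that 3 against 3 libraries allow). In the JUN family JUNB supplied 32.6% ± 0.35, 49.6% ± 4.4, 47.5% ± 6.7 and 35.6% ± 5.0 at the 4 times in turn, and JUND 55.6% ± 3.1, 40.7% ± 3.4, 42.6% ± 3.6 and 57.4% ± 6.3. JUNB was thus the larger share at 1 h and JUND at 0 h and 24 h, and shares at 1 h did not overlap those of 0 h for either (exact permutation p = 0.1). At 24 h the exact permutation p against 0 h was 0.4 for JUNB and 0.8 for JUND. In replicate 2 of 2 h JUND (42.3 FPKM) was above JUNB (38.9 FPKM). The summed FPKM of the FOS family was 129 ± 23.6 at 0 h and 191 ± 32.6 at 24 h, and that of the JUN family 58.3 ± 5.6 and 160 ± 20.4.

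**Figure D4:**
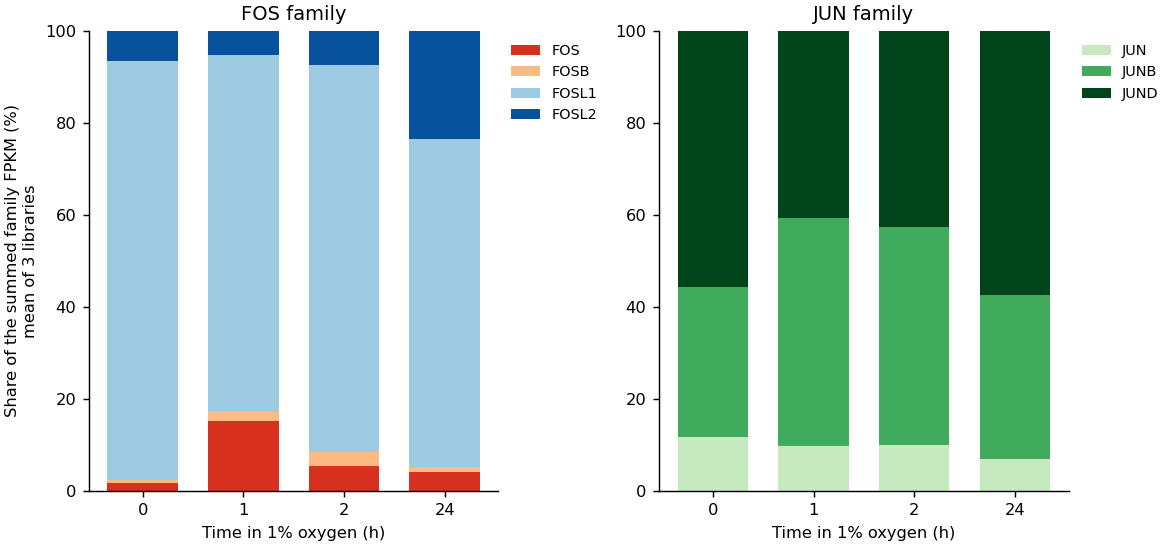
Mean share (y axis, %) of each gene in the summed FPKM of the FOS family (left) and the JUN family (right) over 3 libraries at 0, 1, 2 and 24 h. FOSL1 holds most of the FOS family throughout, FOSL2 widens to 23.5% at 24 h, and JUNB is the widest part of the JUN family at 1 h and 2 h. At 2 h this holds for the mean, and in replicate 2 JUND (42.3 FPKM) was above JUNB (38.9 FPKM).

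The 10 genes had 66 transcripts in the table, of which 50 had any FPKM and 25 met the low-value filter on their own. JUN, JUNB and EGR1 each had 1 transcript. The change of FOSL2 was carried by its leading protein-coding transcript, ENST00000264716, which rose by 2.34 ± 0.15 at 24 h (limma over 62162 transcripts, adjusted p = 4.2e-06). The shorter ENST00000545753 rose too (2.42 ± 0.57, adjusted p = 0.0090) and held 13.9% of the FOSL2 FPKM at 24 h, next to 78.7% in the leading transcript. The leading transcripts of JUND (ENST00000252818, 1.48 ± 0.31, adjusted p = 0.0052) and IER3 (ENST00000259874, 2.14 ± 0.33, adjusted p = 0.00082) were called as well. JUNB, with 1 transcript, was not called at 24 h in the fit over transcripts.

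FOS was carried by ENST00000303562 in 90.2% ± 8.5 of its FPKM at 0 h and 90.7% ± 6.8 at 24 h. The leading transcript of FOSL1, ENST00000312562, held 77.7% ± 0.57 before hypoxia, 82.6% ± 0.48 after 1 h, 84.0% ± 3.3 after 2 h and 87.9% ± 3.2 after 24 h, and its shares at 24 h did not overlap those at 0 h (exact permutation p = 0.1, the smallest possible). A shorter FOSL1 transcript, ENST00000531493, had a mean of 16.3 FPKM at 0 h and 6.55 FPKM at 24 h (log2 fold change -1.26 ± 0.34, limma adjusted p = 0.019, not called). FOSB was split between ENST00000353609 and ENST00000592436, at a level where 1 library of 0 h had 0% in the first. ATF3 was mostly ENST00000341491 (66.5% ± 8.4 at 0 h) and ENST00000366985. For IER3, 10 transcripts on alternate haplotypes of the MHC region were at 0 in every library, and reads shared with them would be split by the estimation.

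The pattern of each gene over the libraries was set beside those of all genes that passed the filter. By Pearson's r of log2(FPKM + 0.5) over the 12 libraries, which share their times and their replicate 3, the genes most like FOS were IER2 (0.94), EGR1 (0.93) and EGR2 (0.89), all immediate early genes. Those most like EGR1 were FOS (0.93), IER2 (0.92) and EGR2 (0.92). Those most like JUNB were ZFP36, which encodes a protein that destabilises mRNA (0.95), ATF3 (0.93) and PHLDA1 (0.89). The values of IER2 show this likeness, with 39.7, 46.0 and 46.4 FPKM at 0 h and 60.5, 71.2 and 152 FPKM at 1 h.

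IER3 and JUND both had their highest mean at 24 h, although all libraries of IER3 at 1 h already lay above those of 0 h and those of JUND did not. The genes most like JUND were IRF2BPL (0.99), the stress cytokine GDF15 (0.98) and H1FX (0.97), and those most like IER3 were the stress gene DDIT4 (0.97), SERTAD3 (0.97) and IRF2BPL (0.97). JUND and IER3 had an r of 0.97 with each other. FOSL2 was most like RNASE4, ANKZF1 and the hypoxia-responsive gene STC2 (all 0.99), and its r with EGR1 was -0.13 and with FOS 0.07. ATF3 was most like JUNB (0.93), FAM226B (0.92) and ZFP36 (0.91), JUN like HES4 (0.92), RP11-66N11.8 (0.90) and MOAP1 (0.88), FOSB like MOAP1 (0.96), STK17B (0.91) and FAM60A (0.88), and FOSL1 like ADAM9 (0.92), CSNK2A1 (0.88) and PLEC (0.88). These values describe 12 libraries and carry no test.

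The lists that follow are to be read at 24 h against the 8.76% of all genes called higher and the 9.51% called lower at that time. Between 2 h and 24 h 7.44% of all genes were called higher and 7.28% lower. At 1 h and 2 h 0.006% and 0.018% were called higher, so that 0 called in a list at those times is near these shares. Of 20 other immediate early genes, 18 passed the filter and EGR4 and NR4A3 did not. At 1 h and 2 h 0 of the 18 were called, with median log2 fold changes of 0.52 and 0.66. At 24 h 3 were called higher and 0 lower, with a median of 0.53. These were the nuclear receptor NR4A2 (2.05 ± 0.27, limma adjusted p = 5.9e-05), the antiproliferative BTG2 (1.23 ± 0.13) and the zinc finger factor KLF6 (1.06 ± 0.12). KLF6 kept its call in 22 of 25 other fits, 11 of the 12 without 1 library among them, and fell under the threshold without replicate 3 of 24 h (0.98). EGR3 had 2.02, 1.22 and 4.58 FPKM at 2 h and at most 0.452 at 24 h and 0.184 at 0 h. It passed the filter only through its libraries of 1 h and 2 h, so its lower level at 24 h (-1.66 ± 0.45, adjusted p = 0.0090, past the threshold in 9 of 25 other fits) is given as a description. EGR2 also passed the filter only through 1 h and 2 h.

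Of 16 other bZIP proteins that can pair with AP-1 or bind related sites, 14 passed the filter, while BATF and CREB5 did not and BATF2 passed it only through 24 h. MAFF, a small MAF protein without a transactivation domain, was called higher at 2 h (1.73 ± 0.16, limma adjusted p = 0.0016) and at 24 h (1.97 ± 0.16). The call at 2 h held in 8 of the 12 fits without 1 library, and was lost without any library of 0 h or replicate 1 of 2 h (adjusted p = 0.013 to 0.018), without the filter (0.016), with the 6 libraries of 0 h and 2 h alone (0.018) and under TPM over all transcripts (0.64, adjusted p = 0.14). Its FPKM was 6.33 ± 0.49 before hypoxia and 11.9 ± 1.3, 22.4 ± 4.2 and 26.4 ± 4.0 after 1, 2 and 24 h. Its relative MAFK rose at 24 h (1.10 ± 0.15), and ATF5 fell (-1.59 ± 0.10, from 19.0 ± 1.3 to 5.95 ± 0.36 FPKM), also between 2 h and 24 h (-1.46 ± 0.10). The median of the 14 at 24 h was 0.32.

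All 19 kinases and promoter factors upstream of these genes passed the filter, and 0 were called at 1 h or 2 h (0.006% and 0.018% of all genes were called higher). At 24 h ELK3, a ternary complex factor that acts with serum response factor, was called higher (1.22 ± 0.17), and the kinase RPS6KA4 lower (-1.10 ± 0.15, and -0.96 without replicate 2 of 24 h), with a median of 0.13. The kinase MAPK11 was called higher between 2 h and 24 h (1.05 ± 0.17) in 19 of 25 other fits. That call was lost without replicate 3 of 2 h (0.90) or replicate 1 of 24 h (0.92), without replicate 3 of 1 h and 2 h (0.90), with a pseudocount of 1 (0.98), under TPM over transcripts from 300 bases on (1.00) and under TPM over all transcripts (1.06, limma adjusted p = 0.056). Of 13 textbook targets of AP-1, 9 passed the filter, and the collagenase and related genes MMP1, MMP3, MMP9 and MMP13 did not. At 24 h 2 targets were called higher and 0 lower, with a median of 0.82. They were PLAU (1.37 ± 0.16) and PLAUR (1.66 ± 0.12), the urokinase protease and its receptor. PLAU and PLAUR were also called between 2 h and 24 h (1.56 ± 0.16 and 1.08 ± 0.12).

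Under TPM over all transcripts, NR4A2, ATF5 and RPS6KA4 kept their call at 24 h, while BTG2, KLF6, MAFF, MAFK, ELK3, PLAU and PLAUR did not. In the same scaling PLAUR (limma adjusted p = 0.052) and ATF5 (0.075) lost their call between 2 h and 24 h.

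**Figure D5:**
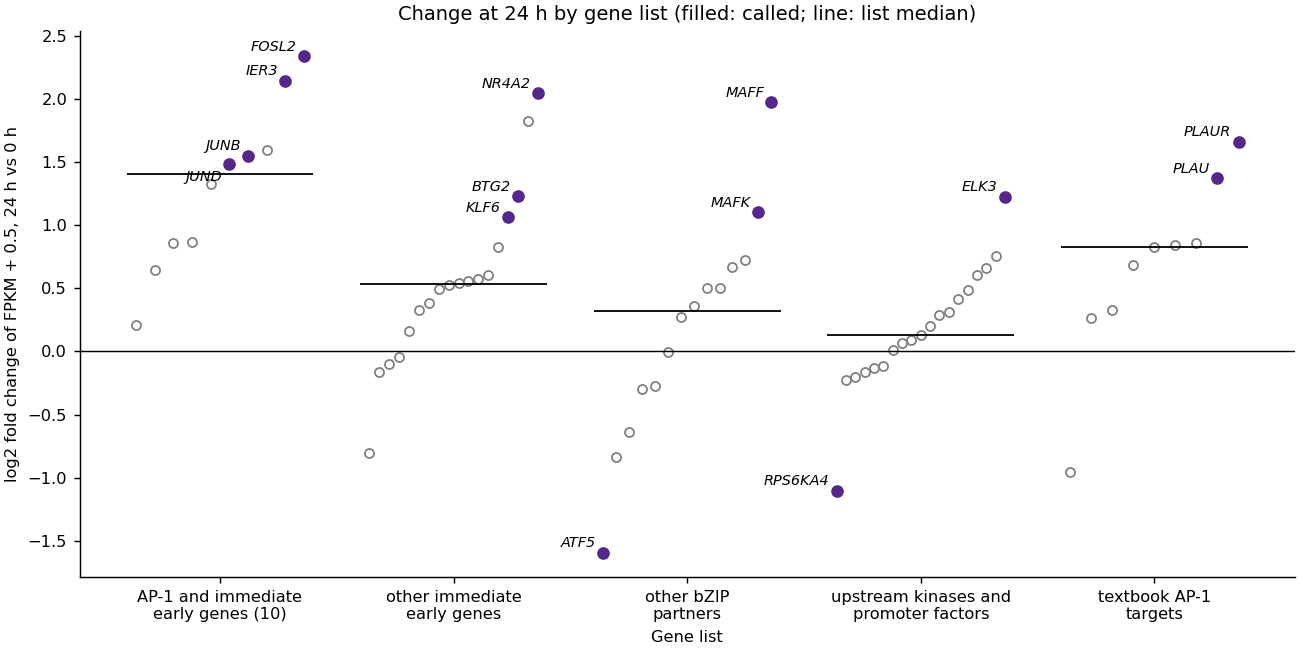
Each point is the log2 fold change of one gene at 24 h relative to 0 h (y axis, on log2(FPKM + 0.5)), grouped by gene list along the x axis, with the list median as a line. Filled and named points were called; the 10 AP-1 and immediate early genes have a median of 1.40 and the upstream factors 0.13.

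Markers of blood, stromal and endothelial cells were measured beside the 24 h results. Of 9, CD68 and COL1A1 passed the filter, and both were called higher at 24 h (2.04 ± 0.23 and 1.59 ± 0.18), COL1A1 not under TPM over all transcripts (0.73, limma adjusted p = 0.0498). The summed FPKM of the 9 was 3.59 to 4.48 before hypoxia, 4.02 to 4.74 after 1 h, 3.94 to 5.30 after 2 h and 15.5 to 20.3 after 24 h. PTPRC, CD3E, COL1A2 and PECAM1 were listed at 0 in every library of 0 h and of 24 h. The cultures were of 1 cell line, HCT116, and the source of these transcripts at 24 h was not tested.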

How the data were processed

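The authors aligned the reads to hg19 with MapSplice, built transcript models with Cufflinks, combined these with Ensembl models and deposited FPKM values per transcript, without a stated normalisation between libraries. The submitters' notes also name CASAVA 1.8.2. Read counts and depth per library were not used here, so precision rests on the spread between 3 replicates. Differences on log2(FPKM + 0.5) understate the change of genes with low values.

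Transcripts of class code = or j were summed per gene name. limma 3.58.1 (lmFit and eBayes with trend, two-sided) in R 4.3.3 (data.table package 1.17.8) was fitted to all 12 libraries, with Benjamini-Hochberg adjustment over 16680 genes. The p-values measure only the spread between these samples. The fit was run on simulated data with independent noise and 1 spread per gene at all times. Those data had no outlying libraries and no correlation between same-numbered libraries, so the run does not bear on either. Annotation came from GENCODE release 44 lifted to GRCh37. Figures used Python 3.11.15 and matplotlib 3.10.9.

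The members, lists and rules were chosen with earlier results of these data known. Named genes were all 10 members, list genes that were called (up to 8 a list) or missed the filter, the 3 genes most like each member, and leading or called transcripts. RNVU1-16, ERRFI1, PIM1, IER2 and the genes called without replicate 3 were named after their values were seen. Pairing was checked on the replicate numbers in the labels, which nothing ties to a shared culture or day. Same-numbered libraries correlated over 0.1 in all 3 pairs between 0 h and 2 h (0.129 to 0.362) and between 1 h and 2 h (0.117 to 0.428, a pair of times not compared here), and not in the other 4 pairs of times. No block was used except where one is named. 1 gene of the list of AP-1 targets is not reported here, and the counts and median of that list leave it out.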

Additional observations from a re-analysis of the deposited data

Results flagged for a closer look

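A transcript that overlaps FOSL2 without sharing a splice junction (class code o) was left out of the sums. Its mean FPKM at 24 h was 0.139 ± 0.104 (SD, n = 3), with 0.0596, 0.1003 and 0.256 in the 3 libraries, above the 0 h libraries, in which the highest value was 0.0359. They overlapped those of the other times, with 0.0908 in replicate 1 of 1 h and 0.176 in replicate 2 of 2 h. The values are far below those of FOSL2 itself, and the difference was not tested.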

How the results depend on the processing

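Values are given for 1 h, 2 h and 24 h relative to 0 h and for 24 h relative to 2 h. The 4 genes called at 24 h kept their call under another pseudocount (0.1 or 1), a stricter filter, other sums of class codes, median-of-ratios scaling, TPM restricted to transcripts of at least 300 bases, and the 6 libraries of the contrast alone. JUNB lost it without a filter, and IER3, JUND and JUNB lost it under TPM over all transcripts. FOS and EGR1 gained a call at 24 h with the 6 libraries of the contrast or without replicate 3 of 1 h and 2 h.

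At 1 h, 1 gene was called in all, and 0 without a filter, with TPM restricted to transcripts of at least 300 bases, with the 6 libraries of the contrast alone or with the replicate block. At 2 h the 3 genes became 6 with a pseudocount of 0.1, 0 without a filter or with the 6 libraries alone, 5 with filtered transcripts only or with that restricted TPM, and 52 at an adjusted p under 0.05 alone. That last threshold gave 9228 genes and 7 of the 10 at 24 h, and 8435 genes and 2 of the 10 between 2 h and 24 h. Without replicate 3 of 1 h and 2 h, 3 genes (2 of the 10) were called at 1 h, 8 genes (2 of the 10) at 2 h and 3 of the 10 between 2 h and 24 h (8.14% of all genes were called higher), where FOS had 0.123 and JUNB 0.4206 in place of negative values.

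Under TPM over all transcripts the median of all genes was -0.56 at 1 h, -0.94 at 2 h and -0.78 at 24 h. In FPKM as deposited it was -0.01, -0.02 and -0.05. This scaling lowers the median because it divides by a total in which short transcripts held 57.0% to 87.6%. It called 28 genes (2 of the 10) at 1 h, 540 (1 of the 10) at 2 h, 4204 (1 of the 10, with 209 higher and 3995 lower in place of 1462 and 1586) at 24 h and 630 between 2 h and 24 h. At 1 h FOSL1 (-0.501), FOSL2 (-0.5325), JUN (-0.0016) and JUND (-0.1601) turned negative, at 2 h FOSL1 (-0.7236), FOSL2 (-0.4103), JUN (-0.221), JUND (-0.322) and ATF3 (-0.2077), and at 24 h FOSL1 (-0.656) and JUN (-0.1654). All of these lay above the shifted median, and none was called in either scaling. Between 2 h and 24 h FOSL1 (0.0676), JUN (0.0556) and JUNB (0.1088) turned positive. The restricted TPM gave a median of -0.13 at 24 h, against -0.05 in FPKM as deposited, and gave ATF3 -0.0569 between 2 h and 24 h. Matching transcripts alone gave FOSL2 -0.0967 at 1 h.

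Leaving out 1 library at a time called 0 to 1 genes at 1 h (0 without any library of 0 h or without replicate 1 or 2 of 1 h), 0 to 6 at 2 h, 3 to 5 of the 10 at 24 h and 1 to 3 of the 10 between 2 h and 24 h. The log2 fold change then ran from -0.0638 to 0.3632 for FOSL1 and from -0.0634 to 0.1043 for FOSL2 at 1 h. Between 2 h and 24 h it ran from -0.1573 to 0.241 for ATF3, -0.548 to 0.123 for FOS, -0.4264 to 0.4206 for JUNB and -0.3395 to 0.0284 for FOSL1. FOS was called at 24 h without replicate 3 of 1 h, ATF3 without replicate 1 of 24 h, FOSB between 2 h and 24 h without replicate 2 of 2 h, and JUND and IER3 there without replicate 3 of 2 h. The 3 genes called at 2 h became 0 without any library of 0 h or without replicate 1 of 2 h, and 1 without replicate 2 of 1 h or of 24 h.

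Replicate numbers were shared between time points, and 10 of 18 pairs of same-numbered libraries had a correlation of deviations over 0.1 (-0.083 to 0.428, mean 0.154). All 3 pairs were over 0.1 between 1 h and 2 h (0.117 to 0.428), which were not compared, and between 0 h and 2 h (0.129 to 0.362). Between 0 h and 2 h the replicate block called 4 genes in place of 3 and 0 of the 10. The limma adjusted p was then 0.0166 for FOSB, 0.0181 for EGR1, 0.0358 for JUNB and 0.0448 for JUN. These 4 values were lower than without the block. The others of the 10 ran from 0.0516 (IER3) to 0.423 (FOSL1). At 1 h EGR1 had 0.0539 with the block, and the others ran from 0.401 (FOS) to 0.979 (FOSL2). With the block, 4 of the 10 genes were called at 24 h (8.99% of all genes were called higher) and 2 of the 10 between 2 h and 24 h (7.6%), where FOSB was added (-1.18, adjusted p = 0.0069 from limma). The cause of the changes under other settings was not tested, apart from the shift of the median. Depth per library was not used, so values near 1 FPKM, such as those of FOSB at 0 h, rest on the replicates alone.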
